A study of Mus musculus with 12 samples.

Results

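The transcripts of the cytosolic ribosomal proteins were compared between pancreatic islets of KO and control mice, with Rps9 set against the other proteins of its subunit. Members were the rows of the gene table whose symbol starts with Rps or Rpl and a number, together with Rpsa, Rplp0, Rplp1 and Rplp2. The S6 kinase rows (Rps6k), Rps19bp1, Rpl7l1, Rpl22l1, Rpl39l and symbols with the pseudogene mark -ps were left out. This gave 82 of 23339 genes, 33 of the small (40S) and 49 of the large (60S) subunit. Islets are small groups of endocrine cells, mostly insulin-secreting beta cells, in the pancreas. They came from C57BL/6 mice that the labels call miR-17-92/106 KO or miR-17-92/106 Control, with 6 RNA sequencing libraries from each genotype, and the series title names the knocked-out clusters as miR-17-92/106b. The promoter or Cre behind the knockout, the age and sex of the mice, the number of animals per library and whether the controls carry any allele are not given in the sources used here. No label says that the libraries come from separate animals, so p-values measure the spread between these libraries, which may be technical.

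A ribosome is assembled from ribosomal RNA and usually a single copy of each ribosomal protein, and unassembled ribosomal proteins are rapidly degraded. The mRNAs of these proteins usually begin with a run of pyrimidines, the 5′ terminal oligopyrimidine (TOP) tract, through which mTOR signalling adjusts their translation as a group. In beta cells, which devote a large part of their translation to proinsulin, ribosomal proteins are among the abundant housekeeping transcripts. Rps9 (uS4 in the unified nomenclature) binds the 5′ domain of 18S rRNA early in 40S assembly and, with Rps3 (uS3) and Rps2 (uS5), lines the channel through which mRNA enters the ribosome.

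In the windows around the annotated start sites, the longest pyrimidine run is marked for members that the results turn on. They comprise Rps9, its channel partners Rps3 and Rps2, the S6 kinase substrate Rps6, and Rps15a, which has a near-identical pseudogene row in the table. Each window holds the 20 bases before the RefSeq start and the first 10 from it, on the gene's own strand in GRCm38.p6, and capitals mark its longest run of C and T. The marked run need not be a TOP tract, which begins at the first base of the mRNA. It covers the annotated start in Rps9 and Rps6 but not in Rps3, Rps2 or Rps15a, and in Rps3 it is only 3 bases long. In Rps15a a shorter run, left in lower case, covers the start. The counts were made on mm9, another build, so no coordinates were carried over from the count table.
Rps9, chr7:3704021-3704050, plus strand: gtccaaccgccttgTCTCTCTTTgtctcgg
Rps3, chr7:99483700-99483729, minus strand: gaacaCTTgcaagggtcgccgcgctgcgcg
Rps2, chr17:24720043-24720072, plus strand: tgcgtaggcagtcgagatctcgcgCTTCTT
Rps6, chr4:86857358-86857387, minus strand: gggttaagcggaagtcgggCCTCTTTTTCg
Rps15a, chr7:118116138-118116167, minus strand: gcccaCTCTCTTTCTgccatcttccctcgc

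The libraries held 2642420 to 5099566 counts, of which the insulin genes Ins1 and Ins2, the defining transcripts of islet beta cells, took 48.6% to 64.0%. The knockout could not be checked from these counts. The rows of the 9 microRNA precursors were at 0 in all 12 libraries, and the host transcript Mir17hg had 0 to 7 counts in the KO and 0 to 4 in the control libraries. Exocrine acinar markers (22 genes in the table, 21 tested) stood at 5.49% to 13.5% of the counts in KO 5, KO 6 and control 1, whose titles carry the numbers 701, 703 and 706, and at 1.14% to 2.56% in the other 9. None of the 21 passed the test between genotypes, against 0.124% of all tested genes. Of the 21, 17 had an unadjusted p under 0.05, against 7.91% of all tested genes. The median log2 difference of the 21 was 1.18. Title numbers ran from 659 to 703 in the KO and from 706 to 992 in the control libraries, so whatever they stand for cannot be told apart from genotype. Of the red blood cell markers, Beta-s was higher in the KO islets (log2 1.03 ± 0.20 SE, adjusted p = 0.0301), while 4 further haemoglobin rows of that list had no count in any library.

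Rps9 was the ribosomal protein transcript that stood furthest from the rest. Its level, in CPM (counts scaled to library size with TMM factors), ranged from 261 to 338 in the KO libraries with a median of 264, and from 342 to 408 in the control libraries with a median of 391.6. Every KO library was below every control library, although the highest KO value (KO 6) and the lowest control value (control 6) lay close together. The means were 283 ± 32.5 and 383 ± 28.3 CPM (SD, n = 6 each), from 726 to 1285 raw counts per KO and 1006 to 1934 per control library. The log2 fold change, KO over control, was −0.44 ± 0.09 SE. With the quasi-likelihood test of edgeR and Benjamini-Hochberg adjustment over the 9664 genes tested, the adjusted p was 0.0538, just over the threshold of 0.05. Rps9 ranked 17 by p-value, and 12 genes (0.124%) passed, 5 of them (0.0517%) lower in the KO. In bulk tissue, fewer cells of a type and less RNA per cell cannot be told apart.

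**Figure D1:**
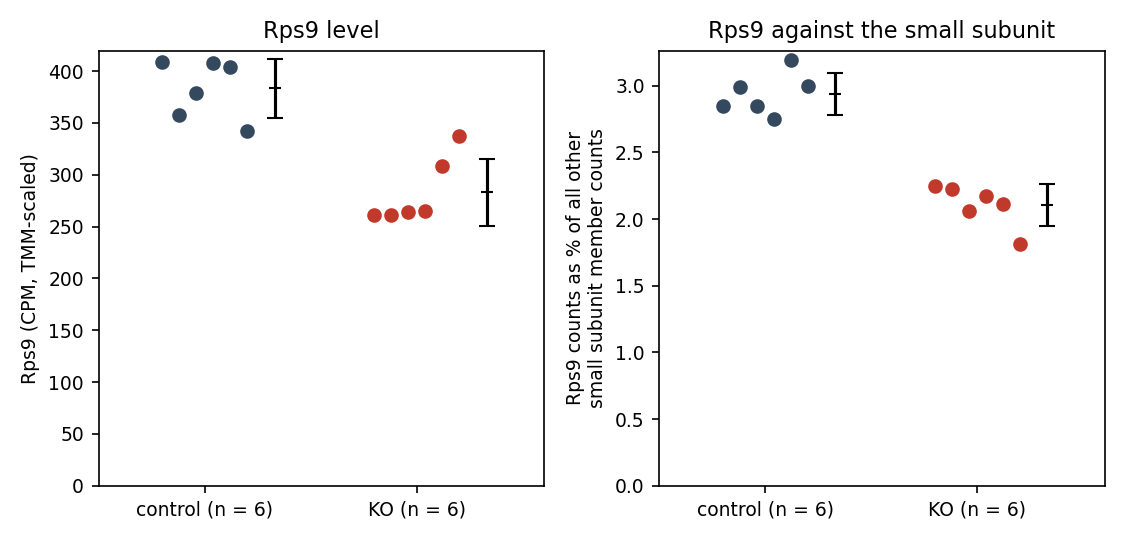
Rps9 in each of the 12 libraries. The left axis gives CPM with TMM scaling and the right axis the Rps9 counts as a percent of the counts of all other small subunit members; points are libraries in replicate order, and bars give the mean ± SD (n = 6). In both panels the KO points lie below all control points, with means of 283 and 383 CPM and of 2.11% and 2.94%.

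Whether Rps9 passed depended on the tool and on KO 6. DESeq2 gave the same fold change with an adjusted p of 2.72e-05 (26 genes passed, 0.28%), and limma voom with quality weights gave −0.46 with 0.0026 (15 genes, 0.155%). In the authors' deposited table the log2 fold change of Rps9 was −0.44 with an unadjusted p of 1.63e-09, the third smallest of 16245. Adjusted here, that p from the authors' deposited table became 8.84e-06, and 21 genes (0.129%) passed. Without KO 6 the edgeR fold change was −0.50 with an adjusted p of 0.00906 (15 genes, 0.153%), while leaving out any other single library gave −0.47 to −0.42 with adjusted p from 0.0516 to 0.151.

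Set against its own subunit, Rps9 separated the genotypes by a wider margin. Its counts were 1.82% to 2.25% of the counts of all other small subunit members in the KO libraries (median 2.14%) and 2.75% to 3.19% in the control libraries (median 2.92%). The groups did not overlap, and the lowest control library stood well above the highest KO library. The means were 2.11% ± 0.16 and 2.94% ± 0.16 (SD, n = 6 each), so the KO value was 71.7% of the control value, and the difference of −0.83 percentage points had a two-sided exact permutation p of 0.00216, the smallest that the 924 splits allow. Rps9 had been singled out with earlier results of these counts known, so this p is not independent support. The spread between libraries (CV 7.49% in the KO and 5.35% in the control group) was larger than counting error alone gives (3.15% and 2.71%). With KO 5, KO 6 and control 1 left out for their acinar counts, the means were 2.17% and 2.96%. The exact permutation p was 0.00794, again the smallest that the remaining splits allow.

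No other tested member separated the genotypes in this way. By CPM, Rps9 was the only one of 76 tested members whose groups did not overlap, against 0.579% of all tested genes (0.238% lower in the KO). Taken as a share of the other counts of its own subunit, it was again the only one of 76; of all genes, taken relative to the small subunit counts, 0.197% had groups apart (0.135% lower). On that relative scale Rps9 stood at −0.48 on the log2 scale, and the other small subunit members lay between −0.28 (Rps15a) and 0.10. With its channel partners as reference genes, there were 1.22 to 1.42 Rps9 counts per Rps2 count in the KO libraries (median 1.34) and 1.56 to 2.004 in the control libraries (median 1.78), without overlap. Per Rps3 count the values were 1.16 to 1.48 (median 1.33) and 1.46 to 1.91 (median 1.67), and these ranges overlapped slightly. Corrected for coding length, Rps9 (569 CPM per kb over all libraries) ranked 46 of the 75 tested members with an annotated length, below their median of 747. This divisor leaves out the untranslated regions, so it can favour members with a short coding sequence.

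**Figure D2:**
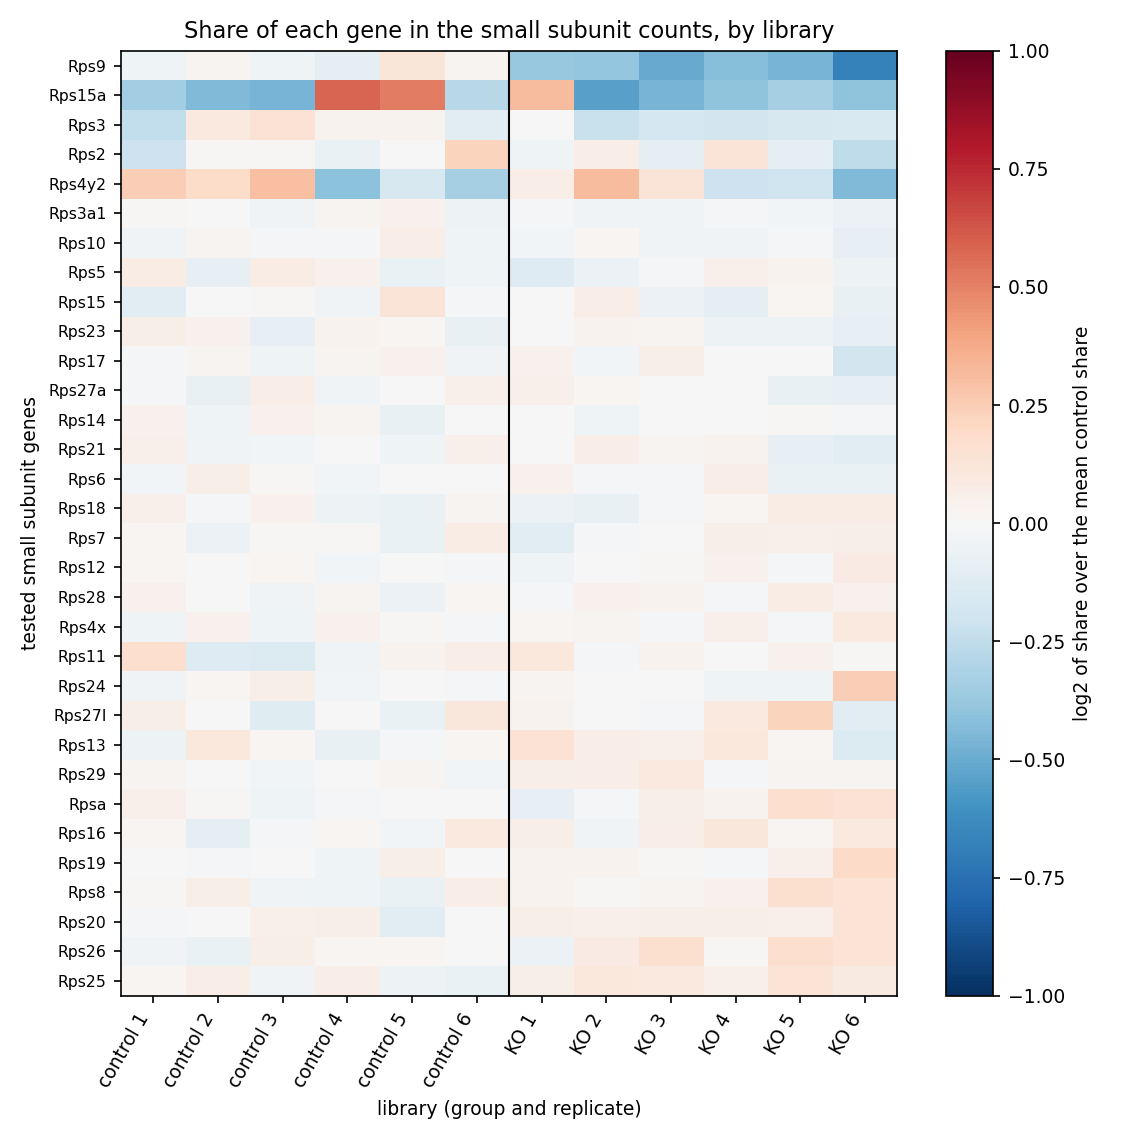
Share of each of the 32 tested small subunit genes in the summed small subunit counts, by library, as the log2 of the share over the mean control share; rows are ordered by the KO against control difference. The Rps9 row is blue in all 6 KO libraries, and the Rps15a row is red in KO 1, control 4 and control 5.

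Of the 82 members, 76 were tested, 32 of the small and 44 of the large subunit, with means of 161 to 4199 counts per library. Rpl10l, Rpl26, Rpl34, Rpl3l and Rps27 had no count in any library, which at 3 counts allows at most 0.588 to 1.14 CPM depending on the library, and Rpl30 had 1 count in all. Rpl26, Rpl34, Rps27 and Rpl30 encode core ribosomal proteins used by every cell, so for them the zeros say only that the table lists them at or near 0. None of the 76 tested members passed at an adjusted p of 0.05 (edgeR), against 0.124% of all genes. Only Rps9 had an unadjusted p under 0.05, against 7.91% of all genes. The log2 fold change was within 0.2 of 0 for 73 of 76 members, with Rps9 and Rps15a the lowest. Its SD over the 75 members other than Rps9 was 0.07, against 0.21 over all tested genes, many of which have far fewer counts.

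**Figure D3:**
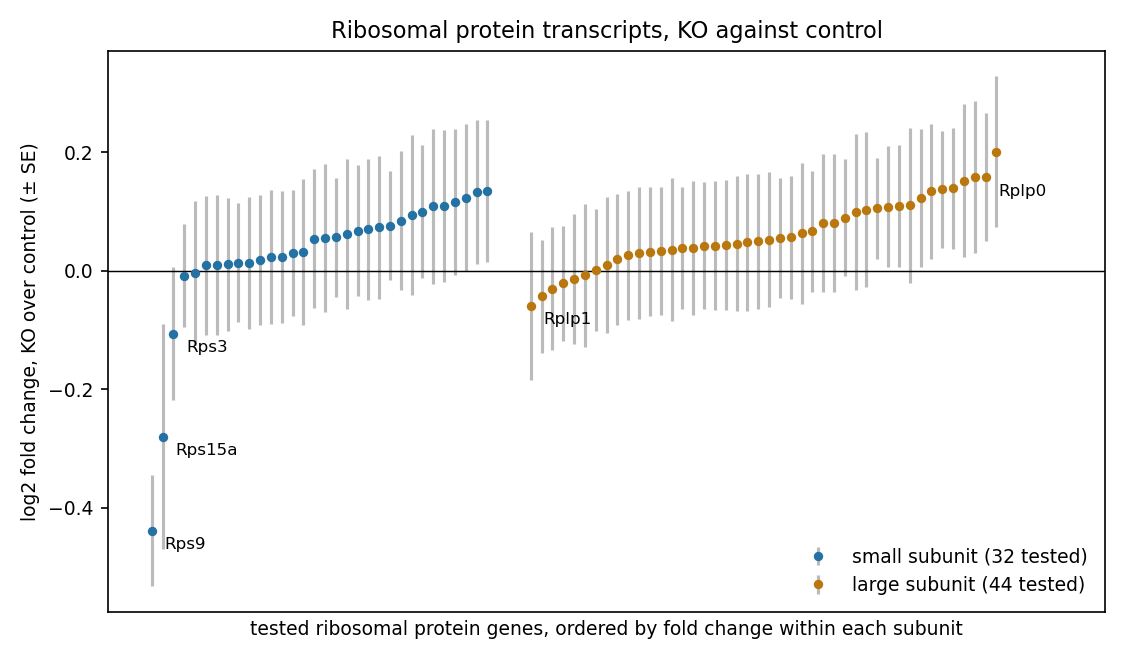
The log2 fold change, KO over control, of the 76 tested ribosomal protein genes (edgeR, bars ± SE), ordered within the small (blue) and the large (orange) subunit. Rps9 lies lowest at −0.44 and Rps15a next at −0.28, while 73 of 76 points lie within 0.2 of 0.

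In the small subunit the median log2 fold change was 0.05, against 0.00 over all tested genes. Rps3, which also has a role in base excision repair of DNA, ran from 177 to 292 CPM in the KO (median 202) and from 187 to 269 CPM in the control libraries (median 228). The groups overlapped, and its log2 fold change of −0.11 ± 0.11 (SE) did not pass. Rpsa, also known as the laminin receptor precursor, ran from 387 to 719.6 CPM in the KO (median 454) and from 404 to 526 CPM in the control libraries (median 453). Its KO range enclosed the control values, with KO 6 at the top.

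Rps6, the substrate of the S6 kinases downstream of mTOR, ran from 357 to 541 CPM in the KO (median 390.0) and from 352 to 448 CPM in the control libraries (median 403). Its log2 fold change was 0.03 ± 0.11 (SE), and the groups overlapped. Rps14 and Rps19, whose reduced dosage causes anaemia in human 5q- syndrome and Diamond-Blackfan anaemia, had log2 fold changes of 0.03 ± 0.12 and 0.11 ± 0.13. Rps14 ran from 677 to 1087 CPM in the KO (median 742) and from 681 to 903 CPM in the control libraries (median 771). Rps19 ran from 506 to 898 CPM in the KO (median 529.9) and from 489.9 to 614 CPM in the control libraries (median 566). In both genes the groups overlapped and the highest KO value was far from the KO median.

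Rps27a, translated as a fusion with ubiquitin, had a log2 fold change of 0.02 ± 0.11 (SE), and the X-linked Rps4x one of 0.07 ± 0.12. Rps4y2, a paralogue row of Rps4x that had no annotated length here, ran from 36.0 to 49.9 CPM in the KO (median 44.9) and from 31.3 to 58.6 CPM in the control libraries (median 43.0). Rps27l, a p53-responsive paralogue of Rps27, was the lowest per length (172 CPM per kb) of the 75 tested members with an annotated length, with medians of 41.6 CPM in the KO and 40.1 CPM in the control libraries. Rps21, a short protein of the small subunit, had the second highest of these levels per length (4180.2 CPM per kb) and a log2 fold change of 0.02 ± 0.11. None of these 5 had groups apart.

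Rps15a, a small subunit protein, was the next lowest after Rps9, at −0.28 ± 0.19 on the log2 scale (SE; edgeR adjusted p 0.766). It ran from 58.9 to 106 CPM in the KO (median 76.1) and from 65.1 to 163 CPM in the control libraries (median 77.0). The groups overlapped and their medians were nearly equal, with control 4 (163 CPM) and control 5 (134 CPM) above all others. The row of its pseudogene Rps15a-ps6, near identical in sequence to the parent gene, held counts of the same order. Rps15a took 57.2% to 59.0% of the counts of both rows in KO 1, control 4 and control 5, and 26.3% to 33.4% in the other 9 libraries. No library lay between these ranges, and the Wilson 95% intervals of the 3 (54.2% at the lowest) and of the 9 (36.6% at the highest) did not touch. Intervals cover counting error only. Counted as a single gene, the pair differed by 0.05 ± 0.13 on the log2 scale (adjusted p = 0.970), so the negative value of Rps15a was lost when its counts were joined to those of the pseudogene. The sources used here do not say how reads that match both rows were assigned.

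**Figure D4:**
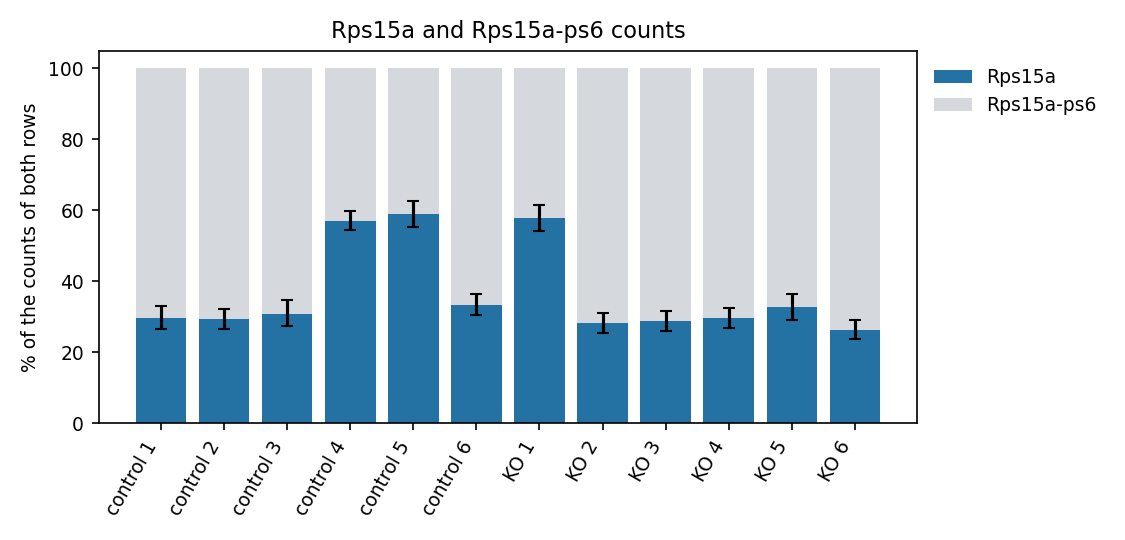
Share of Rps15a (blue) and of its pseudogene Rps15a-ps6 (grey) in the summed counts of both rows, by library, with Wilson 95% intervals that cover counting error only. KO 1, control 4 and control 5 stand at 57.2% to 59.0% and the other 9 libraries at 26.3% to 33.4%.

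In the large subunit the median log2 fold change was 0.05 as well. Of its 44 tested members 0 passed, against 0.124% of all tested genes, and 0 had an unadjusted p under 0.05, against 7.91%. Rpl12, at the base of the stalk that recruits elongation factors, ran from 327 to 581 CPM in the KO (median 369.8) and from 329 to 430.4 CPM in the control libraries (median 366). The medians were nearly equal, with KO 6 at the top, and the log2 fold change of 0.16 ± 0.13 (SE) became 0.04 without KO 6. Rpl31, beside the exit of the peptide tunnel, went from 0.14 ± 0.10 to 0.04 without that library, and Rpl10a, on the L1 stalk, from 0.14 ± 0.10 to 0.06.

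None of the stalk proteins passed the test, against 0.124% of all tested genes. Rplp0, the scaffold of the stalk, ran from 470.2 to 697 CPM in the KO (median 529.9) and from 446 to 578 CPM in the control libraries (median 494). The groups overlapped and the log2 fold change was 0.16 ± 0.11 (SE). Rplp1, which binds Rplp0 as a heterodimer with Rplp2, ran from 825 to 1343 CPM in the KO (median 1002) and from 964 to 1345 CPM in the control libraries. Its log2 fold change was −0.06 ± 0.12, that of Rplp2 was 0.11 ± 0.09, and that of Rplp1 was above 0 (at most 0.01) without KO 1 or without control 4.

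Members of the large subunit with roles outside the ribosome had overlapping groups too. Rpl5 and Rpl11, which bind Mdm2 together with 5S rRNA and so link ribosome assembly to p53, had log2 fold changes of 0.04 ± 0.11 and 0.05 ± 0.11 (SE). Rpl11 ran from 388 to 598 CPM in the KO (median 411) and from 369 to 494 CPM in the control libraries (median 420.0). Rpl3, beside the peptidyl transferase centre, stood at 0.05 ± 0.11, and its muscle paralogue Rpl3l had no count. Rpl10, which joins late in 60S maturation, stood at 0.03 ± 0.11, Rpl13a, which in human cells leaves the ribosome to silence inflammatory mRNAs, at 0.04 ± 0.11, and Rpl22, which represses the mRNA of its own paralogue, at 0.11 ± 0.13. Rpl36al, an autosomal paralogue of Rpl36a, stood at −0.04 ± 0.09. Rpl41, the shortest ribosomal protein, had the highest level per length of those 75 members (14668 CPM per kb, over a coding length of 78 bases). Its medians were 1091 CPM in the KO and 1086 CPM in the control libraries.

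As a set, ribosomal protein transcripts differed more between libraries than between the genotype means. They took 2.87% to 3.93% of all counts in the KO libraries (mean 3.17% ± 0.40 SD, n = 6) and 2.94% to 3.38% in the control libraries (3.18% ± 0.18). Without the insulin counts the means were 7.53% ± 0.81 and 8.05% ± 0.67, and the ranges overlapped on both scales. The small subunit held 42.1% to 43.6% of the member counts in every library. The median member in KO 6 was 0.43 above its own mean over the 12 libraries on the log2 CPM scale, and 76 of 76 members were above their mean there. In KO 5, control 1 and control 4 the median member was 0.13 to 0.15 above, with 71 to 75 members higher, while in control 6, the lowest, it was 0.20 below with 2 of 76 higher.

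The slight excess of positive values in the KO group was lost without KO 6 and with the acinar share as a covariate. Of the 76 tested members 65 had a log2 fold change above 0 (85.5%, against 50.6% of all genes), with a median of 0.05. Without KO 6 the median turned to −0.06 in the small and −0.04 in the large subunit, and without KO 5, KO 6 and control 1 together it was −0.08 and −0.06. With all 12 libraries and the acinar share as a covariate it was −0.03 and −0.02. With a term for title number, which sets the KO libraries against control 1 alone, it was −0.08 and −0.10. Every shift was smaller than the pooled SD between libraries of the median member deviation (0.197). Whether the acinar share sets the excess was not tested. KO 5, KO 6 and control 1 are the libraries with the highest acinar marker shares (13.5%, 10.7% and 5.49%). On the log2 CPM scale the member level in control 4, at 1.14% acinar share, was as high as in KO 5. As a share of the counts without insulin, the members took 6.13% in KO 5, the lowest of the 12 libraries, and 9.20% in control 4, the highest. With the acinar covariate the Rps9 log2 fold change was −0.49 with an adjusted p of 6.68e-05 (33 genes passed, 0.341%), and without those 3 libraries it was −0.52 with 0.000172 (30 genes, 0.296%). On the log2 CPM scale the Rps9 difference was as large without the libraries of high acinar share as with them.

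**Figure D5:**
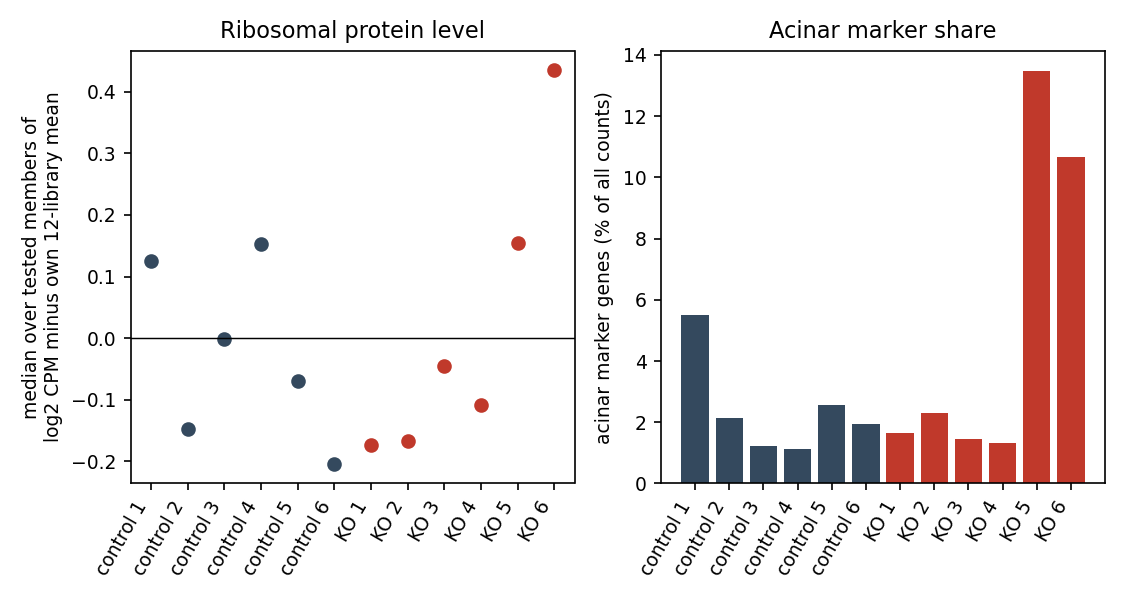
Left, the median over the 76 tested members of the log2 CPM in a library minus the member's own mean over 12 libraries. Right, the percent of all counts in acinar marker genes; blue marks control and red KO libraries. KO 6 is highest on the left (0.43) and KO 5 on the right (13.5%), and control 4 is at 0.15 on the left with 1.14% on the right.

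The microRNAs of the knocked-out clusters pair with targets through bases 2 to 8, the seed, shown in capitals for 1 or 2 microRNAs of each seed because the search for target sites used these letters. The mature sequences are from RefSeq, GRCm38.p6, and 9 microRNAs of the clusters share 4 seeds.
miR-17-5p, chr14:115043684-115043706, plus strand: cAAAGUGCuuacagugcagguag
miR-106b-5p, chr5:138165787-138165807, minus strand: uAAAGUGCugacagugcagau
miR-18a-5p, chr14:115043867-115043889, plus strand: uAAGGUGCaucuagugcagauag
miR-19a-3p, chr14:115044048-115044070, plus strand: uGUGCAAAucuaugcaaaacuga
miR-92a-3p, chr14:115044476-115044496, plus strand: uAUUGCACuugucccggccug
miR-25-3p, chr5:138165332-138165353, minus strand: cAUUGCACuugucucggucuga

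Ribosomal protein mRNAs held few matches to these seeds. In the GENCODE M21 annotation 81 members had a 3′ UTR, with a median length of 87 bases against 877 over 18573 genes. A match to any of the site GCACTTT (seed of miR-17 and miR-106b), GCACCTT (of miR-18a), TTTGCAC (of miR-19a) or GTGCAAT (of miR-92a and miR-25) was present in 3 of the 81 (3.70%), against 27.5% of all genes with a 3′ UTR. The part of UTR length in that difference was not tested. The 3 were Rps15a (miR-17 and miR-18a sites), Rps20 (miR-17, miR-19a and miR-92a sites) and Rpl15 (the miR-92a site). The 3′ UTR of Rps9, 69 bases long, held none of the 4. Rps20, a protein of the small subunit head, had a log2 fold change of 0.12, and Rpl15, a core protein of the large subunit, of −0.02. A match is a description of letters and does not show a site in use.

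Promoter windows were found in RefSeq for 61 of the 82 members, from 250 bases before to 50 after the start. A run of at least 6 pyrimidines within 10 bases of the start, on the gene's strand, was present in 30 of the 61 (49.2%), against 25.2% of 27025 promoters. Rps9, Rps6, Rps2 and Rps15a were among the 30, and the Rps3 window shown above had no such run. The letters CCGGAAG, on either strand, were present in 24 members (39.3%, against 9.12%) and AAGATGGC, on either strand, in 4 (6.56%, against 2.88%), Rps15a among them. TATAAA, on either strand, was present in 5 members (8.20%, against 14.2%). Rps9 held none of these 3 motifs. It did hold TGACGTCA, which reads the same on both strands, as did Rpl13, Rpl18, Rpl26 and Rpl27a (5 of 61, 8.20%, against 1.88% of all promoters). This motif was chosen after the Rps9 window had been read, so its presence in Rps9 is not a finding.

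Genes with near-identical copies can lose or gain reads in counting. A copy of at least 95% identity over at least 80% of the coding length was annotated for 76 of 81 members, with a median of 5 copies and up to 57 for Rpl21. Rps9 had a single such copy, which is not a row of the count table, and no annotated gene overlapped Rps9. Rps3, its partner in the entry channel, had none. Whether reads were shared between Rps9 and its copy was not tested.

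Other genes of the translation apparatus did not pass either, with edgeR or with any of its alternatives, DESeq2 and voom included. Of all tested genes, 0.124% passed with edgeR and 7.91% had an unadjusted p under 0.05. At 0.124%, no gene passing is usual for lists of this size. Of the ribosomal proteins with other symbols, 0 of 3 passed. Gnb2l1 (Rack1), a signalling scaffold on the small subunit, stood at 0.15 ± 0.11 on the log2 scale (SE; edgeR adjusted p 0.787). Of 15 tested translation factors and other TOP mRNAs 0 passed, with a median log2 fold change of 0.00, and in neither list did a gene have an unadjusted p under 0.05. The smallest p among them was that of Tpt1, a TOP mRNA encoding a growth-related tumour protein (0.10 ± 0.13, adjusted p = 0.921), and the elongation factor Eef2 was at −0.01 ± 0.10. Of 26 ribosome biogenesis factors 0 passed and 0 had an unadjusted p under 0.05, with a median of −0.00 and Ebna1bp2, a nucleolar 60S assembly factor, at the smallest p (−0.14 ± 0.09, adjusted p = 0.764). Of 74 tested mitochondrial ribosomal proteins 0 passed, 6 had an unadjusted p under 0.05 (7.91% of all tested genes did), the median was 0.05, and Mrpl19 had the smallest p (−0.37 ± 0.14, adjusted p = 0.499).

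Rows close to the members by name were also measured. Of 20 such rows 12 were tested and 0 passed, against 0.124% of all tested genes. Of the 12, 2 had an unadjusted p under 0.05, against 7.91% of all tested genes, and the median log2 fold change was 0.02. The smallest p was that of the pseudogene Rps19-ps3 (log2 −0.62 ± 0.17 SE; edgeR adjusted p 0.194), at 6.18 to 10.6 CPM in the KO and 9.04 to 15.02 CPM in the control libraries, while its parent Rps19 stood at 0.11. Rps6kb1, the S6 kinase that phosphorylates Rps6, was at 0.28 ± 0.11 on the same scale (adjusted p = 0.502), and Rpl22l1, the paralogue of Rpl22, at −0.09 ± 0.09.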

How the data were processed

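RNA sequencing libraries of islets were compared, 6 KO and 6 control, with groups and replicate numbers from the labels. The submitters' processing notes list TopHat2, HTSeq and DESeq2 1.4.5 with the build mm9, and no role for any of them. The annotation, the strand setting and the treatment of reads with several matches are not given in the sources used here. The values tested are raw whole-number counts per gene, deposited by the authors. The authors' deposited table also holds a log2 fold change and an unadjusted p-value per gene, per the file headers, and these were set beside the values obtained here. Its 12 normalized columns were not used. In 27 of 23366 rows, with 0.0447% of the counts, dates stood in place of gene names, and such rows were dropped.

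Genes were filtered with edgeR's default (minimum count 10, minimum total 15), scaled with TMM factors and tested with the quasi-likelihood test of edgeR 4.0.16 in R 4.3.3, without covariates or a replicate block, over all genes. DESeq2 1.42.0 and limma 3.58.1 (voom) were alternatives, along with other scalings, filters, covariates and left-out libraries. A prior count of 2 was used for log2 CPM values only in the check of same-numbered libraries. The member levels by library used none. A share of counts was compared with an exact permutation test over libraries, with all splits enumerated directly (numpy 2.4.6). An SE was obtained as the absolute log2 fold change over the square root of F. The test was checked on simulated data. No 2 libraries agreed within counting error (lowest chi-square per gene 2.04 over 66 pairs). Near copies were sought with BLAST+ 2.17.0 among GENCODE M21 transcripts (GRCm38), with the coding sequence of each member as the query.

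The members and lists were chosen with earlier results of these data known. The genes named are Rps9, the 5 members of each direction with the smallest p, the 3 highest and 3 lowest in CPM, a set fixed by role and, of each other list, the gene with the smallest p. Rps2, Rps20, Rpl15, Eef2, Rps6kb1 and Rpl22l1 were named besides, with their values known. Results for 2 genes that the rule names are not reported here.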

Additional observations from a re-analysis of the deposited data

Results flagged for a closer look

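In 31 quantities checked in both groups (62 groups of 6 libraries), 7 had a single library far from the rest of its group, and chance alone gives about 1 in 20 groups. KO 6 accounted for 6 of the 7. Many of these quantities move together (76 of 76 tested members were above their own mean in KO 6), so the flags are not independent. Ribosomal proteins took 3.93% of all counts in KO 6, and the next highest KO library had 3.23%. The small subunit held 43.64% of the member counts in KO 6, against 42.45% in the next highest KO library. Among single members, Rpl31 stood at 139.5 CPM in KO 6 (next highest KO library 106 CPM). Rps19 stood at 898.0 CPM (next 641 CPM), Rps27a at 883.3 CPM (next 699 CPM) and Rps4x at 706.8 CPM (next 513 CPM). The acinar marker share of KO 6 was 10.7%, and the part of other cells in its ribosomal protein level was not tested. The remaining library was KO 1, where Rps15a took 57.86% of the counts of Rps15a and Rps15a-ps6 together, against 32.7% in the next highest KO library; control 4 and control 5 had similarly high shares.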

How the results depend on the processing

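Rps9 had a negative log2 fold change under every alternative run for it, and the called side of the threshold moved. It passed, as the 1 member called, with DESeq2 (−0.44), voom (−0.46), no expression filter (−0.45, adjusted p = 0.0303), a mean of at least 50 counts (−0.43, 0.0415), the acinar covariate (−0.49) and without title numbers 701, 703 and 706 (−0.52). The same alternatives called 26, 15, 22, 9, 33 and 30 genes in all, against 12. It did not pass with RLE factors, upper quartile factors or library sizes without insulin, acinar and Rn45s counts (adjusted p 0.0585 to 0.063) or with the member counts as library size (0.0998, 4 genes called). In 2 fits the control arm is control 1 alone, assumed to vary like the other libraries, so they do not decide whether Rps9 passes. They are title numbers 701, 703 and 706 alone (59 genes called, Rps9 at −0.34 ± 0.23 SE) and a term for title number up to 706, which holds all KO libraries and control 1 (0 genes called in edgeR, 530 with an unadjusted p under 0.05, Rps9 at −0.53 ± 0.17). Leaving out each library in turn gave −0.50 to −0.42 for Rps9, 0 to 1 members and 5 to 17 genes called; the lowest, 5, was without KO 1. The Rps9 share of the small subunit kept its direction and its side of the threshold with each library left out (difference −0.87 to −0.77 points), with other denominators and without title numbers 701, 703 and 706. As the groups of all 12 libraries did not overlap, each permutation p with libraries left out was the smallest possible. That side of the threshold followed from the separation and adds no support. With a replicate block Rps9 stood at −0.44 (adjusted p = 0.114), with 15 genes called. The replicate numbers did not pair the libraries, with correlations of −0.115 to 0.0516 between same-numbered libraries and 1 of 12 libraries closest to its own number. Of 349 values of 25 other named members, 338 moved by less than the spread between replicates and 0 passed.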

Other observations

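Rps9 lies on chromosome 7 among genes that were measured in the same libraries. Of the 8 nearest protein-coding genes on each side, 10 were tested and none passed (edgeR, adjusted p under 0.05), against 0.124% of all tested genes. The direct neighbour Tsen34, a subunit of the tRNA splicing endonuclease, had a log2 fold change of −0.08 ± 0.08 (SE), and Mboat7, a lysophospholipid acyltransferase, of 0.01 ± 0.14. Ndufa3, a subunit of respiratory complex I, had 0.27 ± 0.09 (adjusted p = 0.413). The nearest to the threshold was Ttyh1, a chloride channel family member, with a log2 fold change of 0.53 ± 0.12 (adjusted p = 0.0679), in the direction opposite to Rps9. Its means were 21.7 ± 2.71 CPM in the KO and 15.04 ± 2.15 CPM in the control libraries (SD, n = 6 each).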
